A study of Mus musculus with 29 samples.

Results

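The 9 genes described here carry the signal of the B cell receptor inside the cell: the kinases Lyn, Syk and Btk, the adaptor Blnk, the phospholipase Plcg2, the lipid kinase subunit Pik3cd, the lipid phosphatase Inpp5d, the protein kinase C Prkcb and the exchange factor Vav1. They were chosen by name, and all 9 are among the 21819 genes listed for each of the 11 libraries from Eμ-myc and wild-type mice (Syk stands there under its RefSeq synonym Sykb). Eμ-myc mice carry a Myc transgene driven by the immunoglobulin heavy chain enhancer, which works in B lineage cells, and they develop B cell tumours. The Tg_lymphnode group (n = 3) was tumour cells from lymph nodes of transgenic C57BL/6 mice, dissociated but not purified, with no age given. The Tg_spleen group (n = 4) was B cells from spleens of transgenic C57BL/6 mice, and the WT_spleen group (n = 4) was B cells from spleens of wild-type C57BL/6 mice. The mice of both spleen groups were 6 to 8 weeks old, and their B cells were enriched on magnetic beads that bind B220. Another 18 libraries came from 3T9 mouse fibroblasts carrying MycER, a fusion of Myc to a hormone receptor that OHT switches on. Total RNA was taken at 0 h and after 4, 8 and 16 h in 400 nM OHT. Nascent RNA, labelled with 4sU, was taken at 0 h and after 4 h in 400 nM OHT. The fibroblast libraries enter only the closing sections.

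On antigen binding, Lyn, a kinase of the Src family, phosphorylates the signalling chains of the receptor, and Syk docks there and phosphorylates Blnk. Blnk gathers Btk and Plcg2, and activated Plcg2 makes the messengers that release calcium and switch on Prkcb, which leads to NF-kappaB. The PI3K subunit encoded by Pik3cd makes the membrane lipid that Btk binds, Inpp5d (SHIP1) removes a phosphate from that lipid, and Vav1 activates Rac GTPases. Several of these genes are also used by myeloid cells and other blood cells, whereas Blnk is best known from the B lineage.

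Values are FPKM as deposited, read levels scaled by transcript length and library total, so that levels of genes can be set beside each other. Between libraries the values also depend on what else makes up the total. Rpph1, an abundant small noncoding RNA, ran from 153474 to 735331 FPKM within WT_spleen. Spacing of the lowest values gave about 630 to 21936 reads behind each member's value in the 11 libraries, as an estimate only. Myc was 1759 to 2179 FPKM in Tg_lymphnode, 1017 to 2408 FPKM in Tg_spleen and 191 to 273 FPKM in WT_spleen. The labels do not say that replicates came from separate animals, so the p-values measure only the spread between these samples.

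The library labelled Tg_lymphnode replicate 3 went against its B cell label. Its summed level of 5 B cell markers (Cd79a, Cd79b, Ms4a1, Pax5 and Ebf1) was 1183.5 FPKM, against 12189 and 15129 FPKM in the other tumours, 18224 to 28673 FPKM in Tg_spleen and 28064 to 32741 FPKM in WT_spleen. In the same library Cd4 was 9468 FPKM and Cd8b1 7615 FPKM while Cd3e was 62.8 FPKM, and Siglech was 2655 FPKM. The fold changes of the members in tumours are therefore also given without this library, as are those of the other pathway genes named and the counts by role. Shares of all genes set beside such counts come from the fits with all libraries. All 3 tumours also held transcripts of salivary gland and pancreas (a summed level of 6 markers of 2285 to 10549.6 FPKM, against 1 to 8.8 FPKM in Tg_spleen and 3.9 to 44 FPKM in WT_spleen). Tissue of origin and purification differ between Tg_lymphnode and both spleen groups, so tumour, lymph node and other cells of the suspension cannot be told apart in these comparisons.

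**Figure D1:**
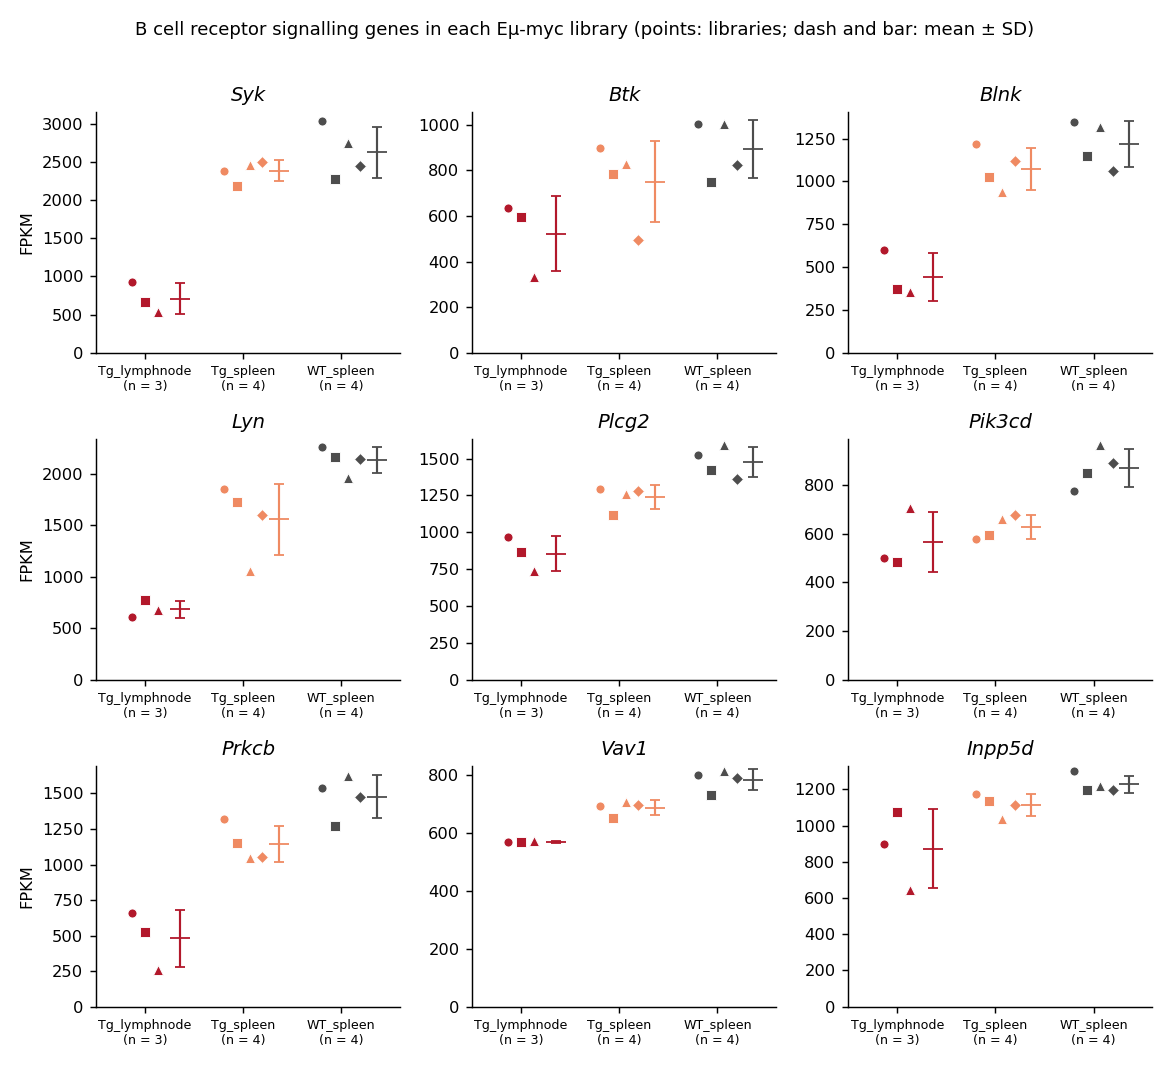
Each panel plots the FPKM of 1 gene (vertical axis, from 0) in every library of Tg_lymphnode, Tg_spleen and WT_spleen, with the group mean and SD as dash and bar. Syk, Blnk, Lyn and Prkcb lie far lower in the tumours than in either spleen group, whereas Pik3cd overlaps between Tg_lymphnode and Tg_spleen.

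The receptor-proximal kinases Lyn and Syk were the members at the highest level in both spleen groups and were among those that fell most in the tumours. Lyn, which both starts and restrains receptor signalling, had 606, 771 and 671 FPKM in the Tg_lymphnode libraries, 1848, 1719.7, 1055 and 1596 FPKM in Tg_spleen and 2257, 2162, 1958 and 2143 FPKM in WT_spleen. The 3 groups did not overlap, and tumours were lowest, wild-type spleens highest, and 1 transgenic spleen (replicate 4) lay between the tumours and the other transgenic spleens. Lyn fell in Tg_lymphnode against WT_spleen (log2 fold change -1.65 ± 0.16, SE, adjusted p = 0.000281 by limma) and against Tg_spleen (-1.16 ± 0.24, adjusted p = 0.0315). Without Tg_lymphnode replicate 3 the fold change against WT_spleen was -1.64 ± 0.17 (adjusted p = 0.000204). The call against Tg_spleen was lost without any single Tg_lymphnode library (adjusted p = 0.0555 to 0.0837) and without Tg_spleen replicates 2, 3 or 5 (adjusted p = 0.0753, 0.105 and 0.0814). Between Tg_spleen and WT_spleen its log2 difference of -0.48 ± 0.19 did not pass (adjusted p = 0.0864). In bulk RNA, fewer B cells in a sample and less of the transcript per cell cannot be told apart.

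Syk, the kinase that docks on the phosphorylated receptor chains, had 932, 661 and 535 FPKM in Tg_lymphnode, 2385, 2186, 2455 and 2504 FPKM in Tg_spleen and 3030.2, 2271, 2752 and 2442 FPKM in WT_spleen. Every tumour was below every spleen library, and the spleen groups overlapped. Its fall was the steepest of the 9 genes in both tumour comparisons, with a log2 fold change of -1.92 ± 0.23 against WT_spleen (adjusted p = 0.000637) and of -1.78 ± 0.23 against Tg_spleen (adjusted p = 0.00500). Without Tg_lymphnode replicate 3 these were -1.73 ± 0.21 (adjusted p = 0.000399) and -1.60 ± 0.24 (adjusted p = 0.0109). Between Tg_spleen and WT_spleen the log2 difference was -0.13, with a 95% interval of -0.48 to 0.22.

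Because Syk fell most, its promoter windows are shown here, beside that of Plcg2, the member whose window holds an E-box (CACGTG, a motif that Myc with its partner Max can bind). The windows run from 250 bases before to 50 bases after each annotated start, 5′ to 3′ on the strand of the gene, taken from RefSeq in build GRCm38.p6. Capitals mark a match to the E-box or to the letters GAGGAA, the core that the myeloid and B cell factor PU.1 binds, on either strand. The expression files were made on mm9, and these coordinates were not used with them.
Syk start 1, chr13:52583187-52583486, plus strand: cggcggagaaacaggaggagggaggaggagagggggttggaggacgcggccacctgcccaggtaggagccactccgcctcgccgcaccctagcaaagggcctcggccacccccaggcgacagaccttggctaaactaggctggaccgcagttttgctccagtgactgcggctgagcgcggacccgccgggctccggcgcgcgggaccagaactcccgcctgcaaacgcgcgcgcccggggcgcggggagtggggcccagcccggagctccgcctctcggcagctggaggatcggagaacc
Syk start 2, chr13:52596632-52596931, plus strand: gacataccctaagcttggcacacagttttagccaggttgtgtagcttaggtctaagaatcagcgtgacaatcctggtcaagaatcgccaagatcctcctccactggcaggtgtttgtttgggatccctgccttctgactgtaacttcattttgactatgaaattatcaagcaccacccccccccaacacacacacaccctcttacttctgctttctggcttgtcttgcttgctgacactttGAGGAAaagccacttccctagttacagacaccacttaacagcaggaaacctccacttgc
Plcg2, chr8:117498025-117498324, plus strand: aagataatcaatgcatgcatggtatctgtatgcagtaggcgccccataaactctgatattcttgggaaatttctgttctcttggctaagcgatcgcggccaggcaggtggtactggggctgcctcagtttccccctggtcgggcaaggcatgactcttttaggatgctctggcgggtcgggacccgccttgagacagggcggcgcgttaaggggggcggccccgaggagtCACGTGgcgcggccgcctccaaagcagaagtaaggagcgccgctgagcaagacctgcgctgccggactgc
The first Syk window held neither motif, the window of its other start held GAGGAA from position -9 relative to the start, and the Plcg2 window held the E-box from position -20. Of the 9 genes, 8 had a window (11 windows in all), and Lyn had none. GAGGAA or its complement TTCCTC occurred in windows of Syk, Btk, Vav1 and Inpp5d, 4 of 11 windows, and the E-box in 1 of 11. Over all 32851 promoter windows of the same length, 28.3% held the PU.1 core and 7.15% the E-box. A match describes the letters of a window and not a bound site.

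Btk, the Tec family kinase recruited to the membrane lipid made by PI3K, had 636, 596 and 333 FPKM in Tg_lymphnode, 896, 784, 828 and 495 FPKM in Tg_spleen and 1004, 749.6, 1002 and 824 FPKM in WT_spleen. The lowest tumour value was that of replicate 3, and 1 transgenic spleen (replicate 5) lay below the range of WT_spleen and inside that of the tumours. Btk fell in Tg_lymphnode against WT_spleen by a log2 fold change of -0.82 ± 0.25 (adjusted p = 0.0325), and by -0.53 ± 0.17 without Tg_lymphnode replicate 3 (adjusted p = 0.0377). That call was lost without WT_spleen replicate 1 (adjusted p = 0.0848), replicate 4 (0.0803) or replicate 6 (0.0614), and with limma's trend and robust options off (0.0511). Neither comparison with Tg_spleen passed for Btk, at a log2 difference of -0.55 ± 0.30 for Tg_lymphnode against Tg_spleen (adjusted p = 0.321; -0.25 ± 0.28 without Tg_lymphnode replicate 3, adjusted p = 0.623) and -0.28 ± 0.20 for Tg_spleen against WT_spleen (adjusted p = 0.325).

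Blnk, the adaptor that holds Btk and Plcg2 next to Syk, had 600.3, 373.5 and 352 FPKM in Tg_lymphnode, 1218, 1023, 936.5 and 1117 FPKM in Tg_spleen and 1347, 1147, 1316 and 1063 FPKM in WT_spleen. The tumours lay below all spleen libraries, with replicate 1 highest among them, and the spleen groups overlapped. Blnk fell in Tg_lymphnode by a log2 fold change of -1.50 ± 0.22 against WT_spleen (adjusted p = 0.00153) and of -1.32 ± 0.24 against Tg_spleen (adjusted p = 0.0182). Without Tg_lymphnode replicate 3 the values were -1.36 ± 0.22 (adjusted p = 0.00151) and -1.17 ± 0.26 (adjusted p = 0.0376). The call against Tg_spleen was lost without Tg_lymphnode replicate 2 (adjusted p = 0.0635) and without Tg_spleen replicates 2, 3 or 5 (adjusted p = 0.0509, 0.0639 and 0.0552). Blnk moved little between the spleen groups, at a log2 difference of -0.18 with a 95% interval of -0.51 to 0.15 for Tg_spleen against WT_spleen.

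Plcg2, the phospholipase that couples Btk and Syk to calcium release, had 969, 864 and 734 FPKM in Tg_lymphnode, 1291, 1117.5, 1261 and 1278 FPKM in Tg_spleen and 1522, 1423, 1592.5 and 1365 FPKM in WT_spleen. The 3 groups did not overlap, with tumours lowest and wild-type spleens highest. Only Tg_lymphnode against WT_spleen passed, at a log2 fold change of -0.79 ± 0.16 (adjusted p = 0.00725), and at -0.69 ± 0.16 without Tg_lymphnode replicate 3 (adjusted p = 0.00895). Tg_lymphnode against Tg_spleen gave -0.54 ± 0.19 (adjusted p = 0.136), or -0.43 ± 0.21 without that library (adjusted p = 0.250), and Tg_spleen against WT_spleen gave -0.25 ± 0.13 (adjusted p = 0.175).

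Prkcb, the protein kinase C isoform that links Plcg2 to NF-kappaB, had 657, 522 and 259 FPKM in Tg_lymphnode, 1319, 1151, 1046 and 1054 FPKM in Tg_spleen and 1542, 1273, 1624 and 1474 FPKM in WT_spleen. The tumours lay below all spleen libraries, and among them replicate 3 was lowest, with the widest relative spread of any member in any spleen or tumour group (a coefficient of variation of 42.2%). Prkcb fell in Tg_lymphnode against WT_spleen by a log2 fold change of -1.72 ± 0.30 (adjusted p = 0.00357), and by -1.33 ± 0.18 without replicate 3 of the tumours (adjusted p = 0.000619). Against Tg_spleen it fell by -1.35 ± 0.31 (adjusted p = 0.0435), or -0.96 ± 0.22 without that library (adjusted p = 0.0450). This last call was lost without Tg_lymphnode replicate 2 (adjusted p = 0.0854) and without any single Tg_spleen library (adjusted p = 0.0713 to 0.119). For Tg_spleen against WT_spleen the log2 difference was -0.37 ± 0.15 (adjusted p = 0.0847).

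Pik3cd and Inpp5d act in opposite directions on the same membrane lipid. Pik3cd, the catalytic subunit of the lipid kinase, had 501.5, 485 and 706 FPKM in Tg_lymphnode, 579, 593, 659.8 and 677 FPKM in Tg_spleen and 777, 849, 965 and 892 FPKM in WT_spleen. Here Tg_lymphnode replicate 3 was the highest of the tumours, unlike for Prkcb and Btk, and all transgenic libraries of either tissue lay below all wild-type ones. Pik3cd was the only member called in Tg_spleen against WT_spleen, where it fell by a log2 fold change of -0.47 ± 0.13 (adjusted p = 0.0239). It also fell in Tg_lymphnode against WT_spleen, by -0.64 ± 0.18 (adjusted p = 0.0232) and by -0.81 ± 0.15 without replicate 3 (adjusted p = 0.00291). Both comparisons share the WT_spleen libraries, and without WT_spleen replicates 3, 4 or 6 neither passed (adjusted p = 0.0543, 0.0697 and 0.0611 for Tg_spleen, and 0.0524, 0.0594 and 0.0575 for Tg_lymphnode). The Tg_spleen call was also lost without Tg_spleen replicate 3 (adjusted p = 0.0635), and the Tg_lymphnode call without Tg_lymphnode replicate 1 or 2 (adjusted p = 0.0650 and 0.0719). Between Tg_lymphnode and Tg_spleen the log2 difference was -0.17, with a 95% interval of -0.62 to 0.28. It was -0.34 without Tg_lymphnode replicate 3, with an interval of -0.79 to 0.10.

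Inpp5d, the phosphatase that restrains the pathway, had 901, 1078 and 642 FPKM in Tg_lymphnode, 1176, 1134, 1036 and 1112 FPKM in Tg_spleen and 1299.5, 1197, 1217 and 1199.5 FPKM in WT_spleen. It was the 1 member called in none of the comparisons. In Tg_lymphnode against WT_spleen the groups did not overlap, and the log2 difference was -0.52 ± 0.20 (adjusted p = 0.0696). That value was -0.69 without Tg_lymphnode replicate 2 (adjusted p = 0.0323) and -0.32 ± 0.16 without replicate 3 (adjusted p = 0.133). Tg_spleen against WT_spleen gave -0.14 ± 0.12 (adjusted p = 0.415), and Tg_lymphnode against Tg_spleen gave -0.38 ± 0.22 (adjusted p = 0.341). The difference from Tg_spleen was -0.18 ± 0.21 without Tg_lymphnode replicate 3 (adjusted p = 0.656).

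Vav1, the exchange factor for Rac GTPases, had the smallest spread among the tumours, with 566, 566 and 572.5 FPKM in Tg_lymphnode, 692, 649, 707 and 695 FPKM in Tg_spleen and 798, 729.6, 813 and 787 FPKM in WT_spleen. The 3 groups did not overlap, although each step between them was small. The tumours had a coefficient of variation of 0.666%, so that Tg_lymphnode replicate 3 did not differ from the other tumours in Vav1 as it did in the B cell markers. Vav1 fell in Tg_lymphnode against WT_spleen by a log2 fold change of -0.46 ± 0.13 (adjusted p = 0.0223), and by -0.46 ± 0.14 without that library (adjusted p = 0.0237). The call was lost without WT_spleen replicate 1, 4 or 6 (adjusted p = 0.0649, 0.0532 and 0.0538). Tg_lymphnode against Tg_spleen gave -0.27 ± 0.16 (adjusted p = 0.348), or -0.28 ± 0.19 without replicate 3 (adjusted p = 0.406), and Tg_spleen against WT_spleen gave -0.19 ± 0.11 (adjusted p = 0.236).

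**Figure D2:**
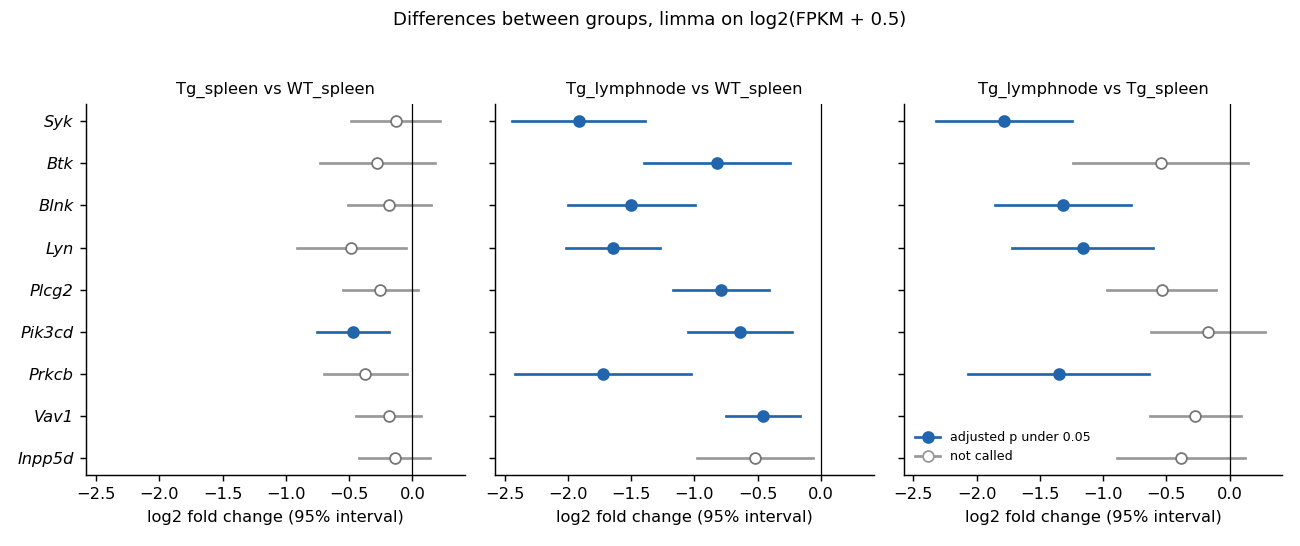
The 3 panels plot the log2 fold change of each gene (horizontal axis) with its 95% interval in Tg_spleen vs WT_spleen, Tg_lymphnode vs WT_spleen and Tg_lymphnode vs Tg_spleen, and filled points passed an adjusted p of 0.05. All points lie left of 0, with 1, 8 and 4 of 9 filled.

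Over the 9 genes, Tg_lymphnode against WT_spleen asked how far established tumours differ from normal spleen B cells. In that comparison 8 members fell and none rose, where 17.7% of the 14758 genes tested were called lower and 20.3% higher. Among genes with a mean of at least 500 FPKM, a bound chosen after values were seen to match the members' levels, 25.8% were called lower. All 9 values were below 0, as were 47.9% of all values. The members' median log2 fold change was -0.82, beside 0.05 over all genes tested. Groups did not overlap for 9 of 9 members, all lower in tumours, beside 21.4% of all genes. Without Tg_lymphnode replicate 3 the count was again 8, and without WT_spleen replicate 4 or 6 it was 5. The shares of all genes above belong to the fit with all libraries, and none is given for these smaller fits.

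In Tg_lymphnode against Tg_spleen, which compares tumours with B cells that carry the same transgene, 4 members fell (Syk, Blnk, Lyn and Prkcb) and none rose. Of the 14692 genes tested, 2.39% were called lower and 3.56% higher, 351 and 523 genes. Quantile normalization turned that split to 374 lower and 362 higher and left 2 members called. The share called lower was 2.82% among genes with a mean of at least 500 FPKM. All 9 members had values below 0, as had 48.7% of all genes. The median log2 fold change was -0.55 over the members and 0.02 over all genes, and 6 members did not overlap between groups, beside 10.6% of genes lower without overlap. Without Tg_lymphnode replicate 3 the count was 3 members, since Lyn then stood at -1.15 ± 0.29 (adjusted p = 0.0555). It was 1 member, Syk, without Tg_lymphnode replicate 2 or without Tg_spleen replicate 2, 3 or 5. The shares of all genes above belong to the fit with all libraries, and none is given for these smaller fits.

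In Tg_spleen against WT_spleen, which compares B cells before tumours with normal ones, 1 member fell (Pik3cd) and none rose, beside 12.2% of 14021 genes called lower and 15.7% called higher. Among genes with a mean of at least 500 FPKM 14.6% were called lower, so the members' share is close to the background. The median log2 fold change was -0.25 over the members and -0.05 over all genes. All 9 values were below 0, as were 53.2% of all values, and 5 members did not overlap between groups, beside 14.7% of genes. Libraries of both groups fell into a set with high and a set with low Rpph1, an abundant small noncoding RNA (545353 to 735331 FPKM and 153474 to 215865 FPKM). The log2 difference of Pik3cd was -0.47 within either set, with an adjusted p of 0.0624 in the high and 0.154 in the low set.

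The order of the levels also differed between groups. In WT_spleen the means ran from Syk (2624 ± 336 FPKM, SD, n = 4) over Lyn, Prkcb, Plcg2, Inpp5d, Blnk, Btk and Pik3cd to Vav1 (782 ± 36.5 FPKM). In that order the libraries of Syk and Lyn, Lyn and Prkcb, Plcg2 and Inpp5d, and Blnk and Btk did not overlap, and those of the other neighbours did. In Tg_spleen Syk was again highest (2382.5 ± 139.9 FPKM, n = 4) and did not overlap with Lyn (1555 ± 348 FPKM), nor did Blnk with Btk, and Pik3cd was lowest (627 ± 48.5 FPKM). In Tg_lymphnode Inpp5d (873 ± 219 FPKM, n = 3), Plcg2 (856 ± 117 FPKM), Syk (709 ± 203 FPKM) and Lyn (683 ± 83.0 FPKM) headed the order, and Blnk was lowest (442 ± 138 FPKM). Among the tumours' neighbours only Lyn and Vav1 did not overlap. By the group means the inhibitor Inpp5d was first of 9 in tumours and the fifth in each spleen group, but in single tumours it was first only in replicate 2, and Plcg2 was first in replicates 1 and 3.

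Ratios within a library do not depend on its scaling. Prkcb relative to Plcg2 was 0.54 ± 0.17 in Tg_lymphnode (0.68, 0.60 and 0.35 in replicates 1, 2 and 3), 0.93 ± 0.11 in Tg_spleen and 1.00 ± 0.08 in WT_spleen (SD, n = 3, 4 and 4), and no tumour reached the lowest spleen library. Blnk relative to Syk was 0.62 ± 0.05 in Tg_lymphnode (0.64, 0.57 and 0.66), 0.45 ± 0.05 in Tg_spleen and 0.47 ± 0.03 in WT_spleen, again with no overlap between tumours and spleens. Btk relative to Plcg2 was 0.60 ± 0.13, 0.61 ± 0.15 and 0.60 ± 0.06 in the same groups, and the single tumours had 0.66, 0.69 and 0.45, lowest in replicate 3. Lyn relative to Syk (1.02 ± 0.33, 0.66 ± 0.17 and 0.82 ± 0.11) and Inpp5d relative to Pik3cd (1.64 ± 0.67, 1.79 ± 0.22 and 1.42 ± 0.18) overlapped between all pairs of groups. The sum of all 9 genes was 4805 to 6369 FPKM in Tg_lymphnode, 9985 to 11405 FPKM in Tg_spleen and 11802 to 13576 FPKM in WT_spleen.

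The members did not follow the B cell markers in Tg_lymphnode replicate 3. In that library the 9 members stood at 17.5% to 81.1% of their WT_spleen mean (median 37.3%), whereas the 5 B cell markers stood at 1.26% to 6.20% (median 1.62%). In the mean of the other tumours the members stood at 30.4% to 80.5% (median 56.7%) and the markers at 29.6% to 81.4% (median 47.6%). In Tg_spleen the members stood at 72.0% to 90.8% (median 83.9%) and the markers at 64.3% to 83.8% (median 75.6%). Summed markers of macrophages and monocytes, cells that also express Syk, Lyn, Btk and Inpp5d, were 2121 to 4582 FPKM in Tg_lymphnode, 872 to 2349 FPKM in Tg_spleen and 1850 to 3400 FPKM in WT_spleen. Summed markers of plasmacytoid dendritic cells were 4999.9 FPKM in replicate 3 of the tumours and at most 346 FPKM in every other library. Summed T cell markers were 583, 1487 and 17773 FPKM in Tg_lymphnode, 89.4 to 247 FPKM in Tg_spleen and 261 to 506 FPKM in WT_spleen, so that every tumour was above every spleen library and every Tg_spleen library below WT_spleen. Summed markers of NK cells, which also express Syk, Plcg2 and Vav1, were 127 to 212 FPKM in Tg_lymphnode, 51 to 381 FPKM in Tg_spleen and 422 to 760.2 FPKM in WT_spleen, lower without overlap in both transgenic groups. The part of these other cells in the members' values was not tested.

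**Figure D3:**
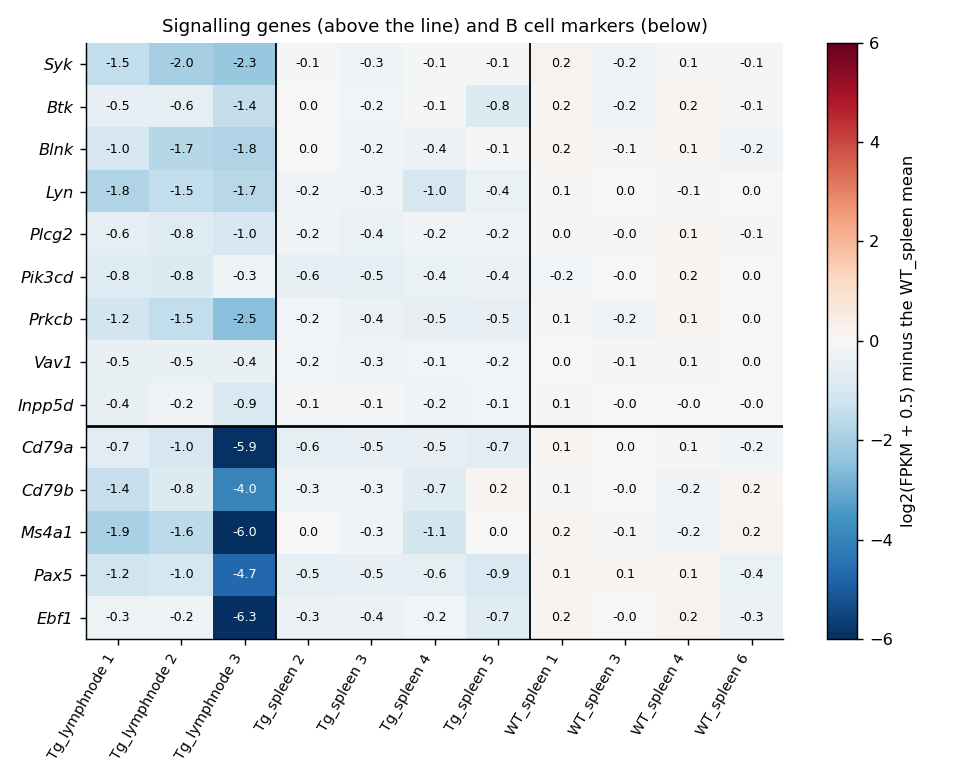
The map gives log2(FPKM + 0.5) minus the WT_spleen mean for the 9 genes (rows above the line) and 5 B cell markers (rows below) in the 11 libraries (columns). In Tg_lymphnode replicate 3 Cd79a, Ms4a1 and Ebf1 are darkest, while Vav1 is near the colour of the other tumours and Pik3cd is paler than in them.

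Around the 9 genes, 93 other genes of the pathway were grouped into 11 role lists, and 90 were tested (Ighm, Ighd and Igkc are not among the listed symbols). In Tg_lymphnode against WT_spleen 53 of them fell and 2 rose, with a median log2 fold change of -0.92. In Tg_spleen against WT_spleen 38 fell and 2 rose, with a median of -0.51, and in Tg_lymphnode against Tg_spleen 7 fell and none rose, with a median of -0.50. These counts stand beside the 17.7%, 12.2% and 2.39% of all genes called lower in the same order. The shares of all genes called higher were 20.3%, 15.7% and 3.56%. Without Tg_lymphnode replicate 3 the counts of lower genes were 65 against WT_spleen and 8 against Tg_spleen. In Tg_spleen against WT_spleen the 38 became 14 to 25 without WT_spleen replicate 1, 3, 4 or 6 or Tg_spleen replicate 5. Against Tg_spleen the 7 became 3 or 4 without Tg_lymphnode replicate 1 or Tg_spleen replicate 2, 3 or 5. The shares of all genes above belong to the fits with all libraries, and none is given for fits that leave a library out.

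At the membrane, Tg_lymphnode against WT_spleen had 1 of 2 receptor chains, 2 of 3 coreceptor genes and 3 of 7 inhibitory receptors lower, and 2 of 2, 2 of 3 and 5 of 7 without Tg_lymphnode replicate 3. With all libraries, 17.7% of all genes tested were called lower there. Cr2, the complement receptor of the coreceptor, was 77.1, 126 and 37.9 FPKM in Tg_lymphnode, 265 to 1723 FPKM in Tg_spleen and 2365 to 3121 FPKM in WT_spleen. It fell in all comparisons, by a log2 fold change of -5.18 ± 0.36 in Tg_lymphnode (adjusted p = 9.55e-05) and -1.89 ± 0.50 in Tg_spleen (adjusted p = 0.0213), each against WT_spleen. The tumour value was -4.72 without replicate 3 (adjusted p = 1.79e-05). Between Tg_lymphnode and Tg_spleen its log2 fold change was -3.29 ± 0.66 (adjusted p = 0.0282), or -2.83 without Tg_lymphnode replicate 3 (adjusted p = 0.0502). Cd79b, a signalling chain of the receptor, fell in Tg_lymphnode against WT_spleen by -2.06 ± 0.69 (adjusted p = 0.0466), and by -1.09 without Tg_lymphnode replicate 3 (adjusted p = 0.0113). Its partner Cd79a fell in Tg_spleen against WT_spleen by -0.55 ± 0.16 (adjusted p = 0.0280). Leaving out 1 library in turn ended the Cd79b call in 5 of 7 cases, Tg_lymphnode replicate 1 and each WT_spleen library (adjusted p up to 0.0988). It ended the Cd79a call in 5 of 8, Tg_spleen replicates 3 and 5 and WT_spleen replicates 1, 3 and 4 (up to 0.0883). The Cr2 call was lost in 3 of 8 cases in Tg_spleen against WT_spleen, Tg_spleen replicate 5 and WT_spleen replicates 1 and 4 (up to 0.0643). In Tg_lymphnode against Tg_spleen it was lost in 5 of 7, Tg_lymphnode replicates 1 and 3 and Tg_spleen replicates 2, 3 and 5 (up to 0.0858). Of the inhibitory receptors, Siglecg fell in Tg_lymphnode by -1.77 ± 0.42 (adjusted p = 0.0132; -1.25 without replicate 3, adjusted p = 0.00640) and Cd72 in Tg_spleen by -0.69 ± 0.13 (adjusted p = 0.00693), each against WT_spleen.

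Among negative regulators in the cytoplasm most calls were falls. Of 9 phosphatases and negative adaptors, 7 fell and 1 rose in Tg_lymphnode against WT_spleen (8 and 1 without Tg_lymphnode replicate 3), and 3 fell and 1 rose in Tg_spleen against WT_spleen. Over all genes tested, 17.7% were called lower and 20.3% higher in the tumour comparison, and 12.2% and 15.7% in the spleen comparison. The 1 rise of 9 was thus no more than the share of all genes called higher. Ptpn6, the phosphatase SHP-1 that inhibitory receptors recruit, averaged 2348 ± 481 FPKM in Tg_spleen and 4033 ± 268 FPKM in WT_spleen (SD, n = 4 each; log2 fold change -0.80 ± 0.19, SE, adjusted p = 0.0155). Inppl1 (SHIP2), a relative of Inpp5d, was the gene that rose. It had 180.2, 176.5 and 181.9 FPKM in Tg_lymphnode, 97.1, 103.1, 143.8 and 125.1 FPKM in Tg_spleen and 63.6, 84.2, 83.5 and 73.7 FPKM in WT_spleen. The 3 groups did not overlap, with tumours highest. Its log2 fold change was 1.24 ± 0.15 in Tg_lymphnode against WT_spleen (adjusted p = 0.000779; 1.23 without Tg_lymphnode replicate 3, adjusted p = 0.000815) and 0.61 ± 0.16 in Tg_spleen against WT_spleen (adjusted p = 0.0236), at levels still below those of Inpp5d in every library.

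The kinases and adaptors near the receptor had 3 of 6 Src and Tec kinases and 9 of 12 adaptors lower in Tg_lymphnode against WT_spleen (5 of 6 and 9 of 12 without Tg_lymphnode replicate 3), and 4 of 6 and 5 of 12 in Tg_spleen against WT_spleen. Over all genes tested, the shares called lower in these comparisons were 17.7% and 12.2%. Tec, a relative of Btk, fell by a log2 fold change of -1.84 ± 0.21 in Tg_lymphnode against WT_spleen (adjusted p = 0.000486), or -1.66 without replicate 3 (adjusted p = 0.000277). Pik3ap1 (BCAP), which brings PI3K to the coreceptor, fell by -1.80 ± 0.19 in Tg_lymphnode (adjusted p = 0.000378; -1.97 without replicate 3, adjusted p = 7.24e-05) and by -1.05 ± 0.16 in Tg_spleen (adjusted p = 0.00351), each against WT_spleen. Lck, a Src kinase best known from T cells, fell in Tg_spleen by -1.22 ± 0.19 (adjusted p = 0.00351), while the summed level of 10 T cell markers was 89.4 to 247 FPKM in Tg_spleen and 261 to 506 FPKM in WT_spleen; the part of T cells in this was not tested. Hcls1, an actin-binding partner of the Src kinases, had 351 to 482 FPKM in Tg_lymphnode, 988 to 1137 FPKM in Tg_spleen and 1026 to 1209.7 FPKM in WT_spleen. It fell in Tg_lymphnode against Tg_spleen by -1.43 ± 0.19 (adjusted p = 0.00498), or -1.33 without replicate 3 of the tumours (adjusted p = 0.0126).

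In the PI3K list and the list of Vav and Rac genes, 4 of 9 and 5 of 7 genes fell in Tg_lymphnode against WT_spleen (3 of 9 and 6 of 7 without Tg_lymphnode replicate 3), and 1 of 9 and 2 of 7 in Tg_spleen against WT_spleen. Shares over all genes tested were 17.7% and 12.2% called lower, and 20.3% and 15.7% called higher. Pik3r1, the regulatory subunit that pairs with Pik3cd, had 143.5 ± 20.5 FPKM in Tg_lymphnode (SD, n = 3), 322 ± 31.0 FPKM in Tg_spleen and 356 ± 22.5 FPKM in WT_spleen (n = 4 each). It fell in Tg_lymphnode by a log2 fold change of -1.32 ± 0.14 against WT_spleen (adjusted p = 0.000403) and of -1.17 ± 0.17 against Tg_spleen (adjusted p = 0.00824). Without replicate 3 of the tumours these were -1.30 (adjusted p = 0.000350) and -1.15 (adjusted p = 0.0183). Pik3cg, another catalytic subunit, fell by -0.56 ± 0.14 in Tg_spleen against WT_spleen (adjusted p = 0.0168), and without WT_spleen replicate 1 the adjusted p was 0.0552. Akt1, a kinase that the lipid activates, rose in Tg_lymphnode by 0.79 ± 0.15 (adjusted p = 0.00529; 0.93 ± 0.13 without replicate 3, adjusted p = 0.000920) and in Tg_spleen by 0.63 ± 0.20 (adjusted p = 0.0375), each against WT_spleen; it was named after its values were seen, as was Inppl1 in Tg_spleen. Both rises in Tg_spleen were lost without Tg_spleen replicate 4 or 5 or without WT_spleen replicate 1 or 6, when 0 genes of the lists were called higher, and that of Akt1 also without WT_spleen replicate 3 or 4 (adjusted p up to 0.0693 for Inppl1 and 0.0870 for Akt1). Vav3, a relative of Vav1 at a much lower level, fell to 11.8 ± 5.4 FPKM in Tg_lymphnode and 40.5 ± 13.5 FPKM in Tg_spleen, against 113 ± 7.2 FPKM in WT_spleen (log2 fold changes -3.28 ± 0.29, adjusted p = 0.000207, and -1.52 ± 0.22, adjusted p = 0.00315), and the tumour value was -3.13 without replicate 3 (adjusted p = 0.000103). Rac2, a GTPase that Vav proteins activate, fell in Tg_lymphnode against Tg_spleen by -1.34 ± 0.22 (adjusted p = 0.0132), or -1.17 without replicate 3 (adjusted p = 0.0267). Vav2 and Vav3, named after their values were seen, were also called lower there, by -0.90 ± 0.18 (adjusted p = 0.0254) and -1.76 ± 0.40 (adjusted p = 0.0409). These were -0.86 (adjusted p = 0.0486) and -1.61 (adjusted p = 0.0670) without Tg_lymphnode replicate 3. The Vav2 call was lost without Tg_lymphnode replicate 1 or Tg_spleen replicate 2, 3 or 5 (adjusted p up to 0.0921), and the Vav3 call without any single library other than Tg_lymphnode replicate 2 (up to 0.131).

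Further down the pathway, 6 of 13 calcium and NFAT genes, 3 of 9 Ras and ERK genes and 10 of 13 PKC and NF-kappaB genes fell in Tg_lymphnode against WT_spleen, and 9 of 13, 4 of 9 and 12 of 13 without Tg_lymphnode replicate 3. In Tg_spleen against WT_spleen the counts were 7 of 13, 2 of 9 and 6 of 13. Beside these stand 17.7% of all genes called lower in the tumour comparison and 12.2% in the spleen comparison. Rasgrp3, which activates Ras on the lipid messenger that Plcg2 makes, had 10.3, 54.7 and 15.0 FPKM in Tg_lymphnode, 382.3, 251.2, 97.5 and 201.8 FPKM in Tg_spleen and 655 to 841 FPKM in WT_spleen. No library of one group reached another, and among Tg_spleen replicate 4 was lowest. Its log2 fold change was -5.17 ± 0.49 in Tg_lymphnode (adjusted p = 0.000293) and -1.85 ± 0.34 in Tg_spleen (adjusted p = 0.00576), each against WT_spleen, and -3.32 ± 0.62 between Tg_lymphnode and Tg_spleen (adjusted p = 0.0218). The tumour values without replicate 3 were -4.95 against WT_spleen (adjusted p = 0.00133) and -3.10 against Tg_spleen (adjusted p = 0.0399). The call against Tg_spleen was lost without Tg_lymphnode replicate 1 or without Tg_spleen replicate 2, 3 or 5 (adjusted p up to 0.0755). Map2k1, the kinase MEK1, fell in Tg_lymphnode by -1.61 ± 0.15 (adjusted p = 0.000261; -1.76 without replicate 3, adjusted p = 4.34e-05), and Plcg1, a relative of Plcg2, in Tg_spleen by -0.75 ± 0.13 (adjusted p = 0.00522), each against WT_spleen.

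At the end of the pathway stand transcription factors. Nfatc1, a transcription factor that calcium activates, averaged 150.5 ± 13.0 FPKM in Tg_lymphnode, 258 ± 82.7 FPKM in Tg_spleen and 607 ± 125 FPKM in WT_spleen, and fell in Tg_lymphnode against WT_spleen by a log2 fold change of -1.99 ± 0.19 (adjusted p = 0.000261), or -1.93 without replicate 3 (adjusted p = 0.000204). Rel, an NF-kappaB subunit, averaged 152 ± 14.8 FPKM in Tg_lymphnode, 354 ± 171 FPKM in Tg_spleen and 709 ± 127 FPKM in WT_spleen and fell by -2.21 ± 0.17 in the same comparison (adjusted p = 0.000129), or -2.13 without replicate 3 (adjusted p = 7.84e-05). Bcl10, which joins protein kinase C to NF-kappaB, fell in Tg_spleen against WT_spleen by -0.70 ± 0.16 (adjusted p = 0.0116).

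**Figure D4:**
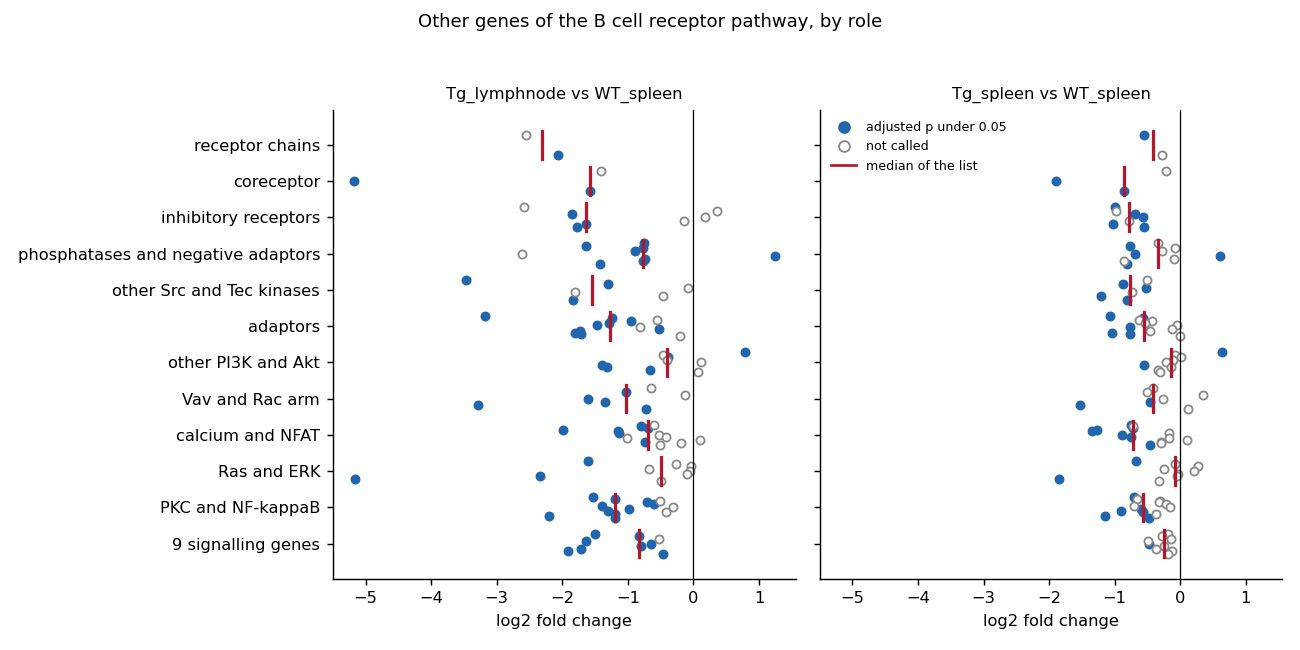
Each row is 1 role list of pathway genes (the 9 signalling genes in the last row), each point is the log2 fold change of 1 gene (horizontal axis) in Tg_lymphnode vs WT_spleen (left) or Tg_spleen vs WT_spleen (right), and red lines are list medians. Every list median lies left of 0 in both panels, and the filled points right of 0 are Inppl1 and Akt1.

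Genes whose levels ran most like the members' were found over 11140 genes and 11 libraries, by the root mean square difference between log2 profiles taken relative to the WT_spleen mean. The median profile of the 9 members lay at -0.79, -0.84 and -1.41 in the Tg_lymphnode libraries, -0.27 to -0.16 in Tg_spleen and -0.08 to 0.11 in WT_spleen. Nearest to it were Itch (a difference of 0.114), Nckap1l (0.115), Crlf3 (0.127), Pbx2 (0.132) and Nat15 (0.134). Of the single members, Inpp5d had the closest neighbour, Agfg1 (0.0594), followed by Vav1 with Usp4 (0.0650), Prkcb with Ablim1 (0.0733) and Pik3cd with Tmbim6 (0.0795). Syk had the most distant one, Ube2h (0.203), and Lyn was nearest to Samhd1 (0.171), Blnk to Ube2d1 (0.144), Btk to Wdfy4 (0.138) and Plcg2 to Mtmr12 (0.109). The profiles share libraries and their scaling, so these values only describe likeness.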

How the data were processed

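The authors sequenced total RNA after removal of ribosomal RNA, per the labels' protocols. Per the file headers, the deposited unit is FPKM, 1 value per gene and library. The build was mm9, and the software comprised HTSeq 0.5.3p9, SAMtools, TopHat and TopHat2 2.0.8, per the submitters' processing notes. The annotation and read filters are not given in the sources used here, nor is the use of strand, so reads of overlapping genes may be shared. The files hold no counts. From the spacing of low values and exon lengths, 48.7% to 58.3% of low values in a library lay within 0.1 read of a whole number (20% if evenly spread), too few to recover reads.

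Values were tested as log2(FPKM + 0.5), 2 groups per fit, by limma 3.58.1 (R 4.3.3) using moderated variances with its trend and robust options. A gene entered a fit if the number of libraries at 1 FPKM or more reached the size of the smaller group. Fold changes on this scale understate those of low genes. P-values are two-sided and adjusted by Benjamini-Hochberg over all genes tested, and called means an adjusted p under 0.05. Errors of fold changes are SE. The fit was tested on simulated data. Tables and figures used Python 3.11.15, NumPy 2.4.6, pandas 2.3.3 and Matplotlib 3.10.9.

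The members, pathway lists, marker lists and tests were chosen with earlier results of these data known. The text names all members, per role list and comparison the called gene with the smallest adjusted p and a mean of at least 5 FPKM in the higher group, and the nearest genes by profile. Pirb was read under its listed name Lilrb3. Alternatives were other pseudocounts, filters and scalings, limma options, all 3 groups in 1 fit, a replicate block, each library left out, and sets by Rpph1 level. Some genes of these lists are not reported here.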

Additional observations from a re-analysis of the deposited data

Results flagged for a closer look

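Each member was looked at in each spleen group and each fibroblast time point, and 5 of 54 such sets of 4 libraries held a value far from the other 3, where chance gives about 1 in 20. All 5 were in replicate 4 of a fibroblast time point. In OHT_0h replicate 4, Syk was 1.13 FPKM (1.128), Lyn 2.45 FPKM (2.445) and Vav1 1.42 FPKM, each the highest of its group. Plcg2 in OHT_8h replicate 4 was 8.95 FPKM (8.952) and Prkcb in OHT_16h replicate 4 was 0.478 FPKM, each the lowest of its group. None of the Tg_spleen or WT_spleen values of the 9 members was far from its group in this way, and Tg_lymphnode, with 3 libraries, was not tested.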

How the results depend on the processing

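No member's log2 fold change turned its sign under any alternative run. Of 459 values of members under alternatives, the replicate block included, 401 kept their side of the threshold, 50 lost the call and 8 gained it. Members lower in Tg_spleen vs WT_spleen (1) became 4 with quantile normalization and 0 with all 3 groups in 1 fit, with high Rpph1 alone and with low Rpph1 alone. The share of all genes called lower with quantile normalization is not given for this comparison. The count of 4 therefore describes the setting and is no result about the members. Members lower in Tg_lymphnode vs Tg_spleen (4) became 2 with quantile normalization. Pathway genes lower in Tg_spleen vs WT_spleen (38) became 17 with all 3 groups in 1 fit, and 12 and 25 with high and low Rpph1 alone. Those higher (2) became 1 with quantile normalization, without limma's trend and robust options and with all 3 groups in 1 fit, and 0 with high Rpph1 alone. Pathway genes called in Tg_lymphnode vs Tg_spleen (7 lower, 0 higher) became 23 lower and 2 higher with all 3 groups in 1 fit. Leaving out 1 library in turn gave 0 to 2 members lower in Tg_spleen vs WT_spleen, 5 to 8 in Tg_lymphnode vs WT_spleen and 1 to 3 in Tg_lymphnode vs Tg_spleen. For pathway genes lower it gave 14 to 48, 41 to 65 and 3 to 9 in the same comparisons, and 0 to 2 higher in Tg_spleen vs WT_spleen. The cause was not tested.

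Only 2 replicate numbers are shared by any pair of groups, and same-numbered libraries deviated together with r of -0.02 to 0.14, so the numbers were not taken to pair samples. In Tg_spleen vs WT_spleen r was 0.127 and 0.136 for numbers 3 and 4, against at most 0.116 and -0.019 with other numbers. Number 3 was in the high and number 4 in the low Rpph1 set in both spleen groups. In the tumour comparisons r was always below the best with another number. Whether the numbers mark samples handled together was not tested. With the replicate block, 0 members were called lower in each comparison and 5, 0 and 0 pathway genes in Tg_spleen vs WT_spleen, Tg_lymphnode vs WT_spleen and Tg_lymphnode vs Tg_spleen, and 0 pathway genes were higher. The block takes each difference from only the 2 shared numbers and leaves almost no libraries to estimate the spread. A loss of calls was therefore likely whatever the genes, and it says little about the members. Calls over all genes (2206 higher and 1712 lower in Tg_spleen vs WT_spleen) became 575 and 265 with the block, 1586 and 790 with all 3 groups in 1 fit, and 908 and 518 with high Rpph1 alone. In Tg_lymphnode vs WT_spleen 2997 and 2619 became 0 and 0 with the block. In Tg_lymphnode vs Tg_spleen 523 and 351 became 0 and 0 with the block, 1065 and 1093 with all 3 groups in 1 fit, and 324 and 294 with a filter of 5 FPKM. Depth is unknown except by the estimate above, and 3 tumours limit every tumour comparison.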

Other observations

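The 9 members were also listed in 3T9 mouse fibroblasts in which MycER, a fusion of Myc to a hormone receptor, was switched on by OHT (4 libraries each after 0, 4, 8 and 16 h), on a scale that cannot be set beside the B cell values. Plcg2 was the highest member there, with means of 16.8, 12.7, 15.0 and 11.8 FPKM at 0, 4, 8 and 16 h (SD 3.3, 1.6, 4.1 and 4.1, n = 4 each). Pik3cd came next, with means of 4.17, 2.32, 3.00 and 2.79 FPKM (SD 0.67, 0.54, 1.10 and 1.44). Blnk had means of 1.98, 1.18, 0.669 and 0.584 FPKM. Its libraries ran from 1.123 to 2.601 FPKM at 0 h and 0.596 to 1.979 FPKM at 4 h. They ran from 0.32 to 0.984 FPKM at 8 h and 0.195 to 0.901 FPKM at 16 h. The other 6 members had means of at most 1.09 FPKM at every time. In the 2 libraries of nascent RNA, at 0 and 4 h, Plcg2 was 2.69 and 3.04 FPKM and Pik3cd 2.06 and 1.38 FPKM, with no replicate. These values are descriptions and were not tested.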
